A study of Mus musculus with 19 samples.

Results

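Clustered protocadherins are cell-surface adhesion proteins of the cadherin family, encoded by tandem genes in 3 neighbouring clusters called alpha, beta and gamma. In the alpha and gamma clusters each gene begins with its own promoter and variable exon, which is spliced to constant exons shared by the whole cluster, whereas beta genes are single exons. A neuron is known to use a small, largely random choice of these promoters, and the proteins bind like to like, which lets the branches of a neuron recognise and avoid each other. The last genes of the alpha and gamma clusters, called C-type, are the exception: they are used in most neurons and are not chosen at random. Promoter choice is known to involve DNA methylation, the DNA-binding protein CTCF, the cohesin ring and distal enhancers.

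The members were the rows of the expression files whose gene symbol is a numbered alpha, beta or gamma protocadherin. There were 58 of them among 24058 genes: 14 in the alpha cluster, 22 in the beta cluster and 22 in the gamma cluster. The C-type members among them are 5 genes, Pcdhac1, Pcdhac2, Pcdhgc3, Pcdhgc4 and Pcdhgc5. All lie on chromosome 18 in the order alpha, beta, gamma, between 36930285 and 37841873 of the mm10 build. RefSeq lists Pcdhgb8 as a transcribed pseudogene and the other members as protein coding.

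The neurons came from mouse hippocampus at embryonic day 17 and were kept for 10 days in vitro. They received no treatment, were silenced with tetrodotoxin (TTX, which blocks the sodium channels that action potentials need; the sources used here give no duration), or were excited for 3 h with bicuculline, which blocks GABA-A receptors, and 4-aminopyridine, which blocks potassium channels (Bic/4AP). Poly(A) RNA was sequenced from 3 libraries of each treatment, and ChIP-seq peaks were listed for H3K27ac, a mark of active promoters and enhancers, in 2 untreated and 2 Bic/4AP samples and for H3K4me1, a mark of enhancers, in 2 untreated samples, all from ICR mice. CpG methylation was measured in 1 library of each treatment from C57BL/6 mice, so it was read in other animals and another strain than RNA and peaks. The labels do not say whether libraries of a treatment came from separate cultures, so the p-values measure only the spread between these libraries.

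Depth differed with treatment: the TTX libraries held 9.68 to 12.6 M (mega) reads, the untreated libraries 5.63 to 9.97 M reads and the Bic/4AP libraries 4.34 to 4.59 M reads. The highest RPKM (reads normalised to gene length and library size) of any gene lay at 123 to 146 in the TTX libraries, 306 to 459 in the untreated and 254 to 287 in the Bic/4AP libraries. Of 12 neuron markers none was below 1 RPKM throughout a treatment, and they summed to 771 to 914 RPKM untreated, 738 to 820 with TTX and 1280 to 1335 with Bic/4AP. With Bic/4AP 11 of them rose and 1 fell on the deposited scale, but 5 rose and 7 fell after cyclic loess normalization. All 12 choroid plexus markers were lower in both treatments than in the untreated libraries, where they summed to 470 to 704 RPKM, against 22.6 to 29.9 with TTX and 38.6 to 43.5 with Bic/4AP. Of these 12 the TTX libraries held 7 below 1 RPKM throughout and the Bic/4AP libraries 5. Summed astrocyte markers (10 genes) were at 136 to 148 RPKM untreated, 177 to 199.7 with TTX and 204 to 235 with Bic/4AP, progenitor markers (8 genes) at 71.9 to 79.5, 106 to 108 and 158 to 179.8, and oligodendrocyte lineage markers (8 genes) at 23 to 29.7, 43.0 to 52.1 and 22.2 to 28.7. In bulk samples fewer cells of a type and less RNA per cell cannot be told apart, and the part of depth and of these marker shifts in the members' changes was not tested.

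Most members were expressed at a similar, low level, and a single gene stood far above the rest in the alpha cluster and another in the gamma cluster. In untreated neurons the median member had 6.00 RPKM, and the lowest was Pcdhb1 with a mean of 0.429 RPKM. The highest was Pcdha10, an alpha gene at chr18:37005320-37187657, with 42.6, 40.1 and 41.1 RPKM in the 3 untreated libraries. Pcdhga9, a gamma A gene at chr18:37736936-37841863, came next with 27.4, 25.95 and 24.7 RPKM. Both spans run from the gene's own variable exon to the last constant exon of its cluster. Below them in order were the C-type gene Pcdhgc3 with 14.7 ± 1.25 RPKM (SD, n = 3), the beta gene Pcdhb17 with 10.5 ± 0.709, the C-type gene Pcdhac2 with 10.1 ± 1.53 and the beta gene Pcdhb9 with 9.97 ± 1.16. The last 3 did not differ beyond their spread. Excluding the C-type genes, Pcdha10 and Pcdhga9, the other 51 members ranged from 0.429 to 10.5 RPKM.

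The number of reads set the precision of these levels. A member of the alpha cluster was backed by 12 to 2285 reads in a library, one of the beta cluster by 1 to 645 and one of the gamma cluster by 12 to 1623. The deposited RPKM divided reads by a gene length of 5209 to 5425 bases in the alpha cluster and 4482 to 5079 in the gamma cluster, far below the genomic spans, so the length includes constant exons that all members of a cluster share. For the beta genes 21 of 22 lengths equalled the RefSeq span within 1 base. The sources used here do not give how reads from shared exons and from similar variable exons were assigned, and levels of Pcdha10 and Pcdhga9 against their neighbours are uncertain for that reason.

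**Figure D1:**
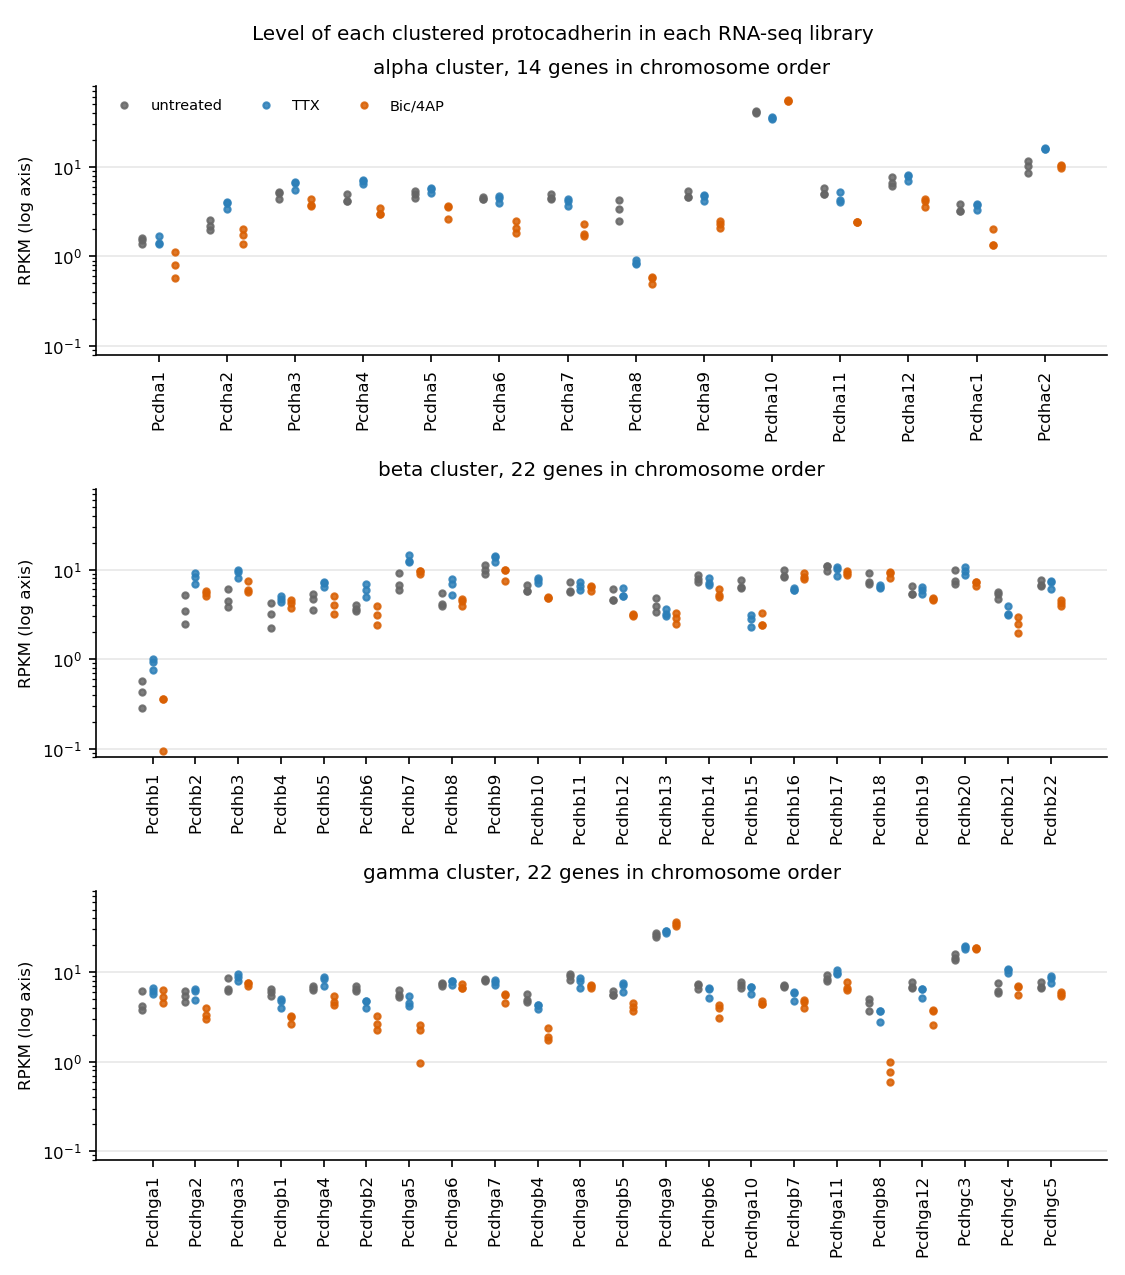
RPKM of each member in each of the 9 RNA-seq libraries, on a log axis, in chromosome order within the alpha, beta and gamma clusters; each point is 1 library, coloured by treatment. Pcdha10 and Pcdhga9 lie above all other members of their clusters in every library, and Pcdha8 and Pcdhb15 are higher in the untreated libraries than in either treated group.

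In neurons excited with Bic/4AP the most abundant alpha gene and the most abundant gamma gene rose above the untreated level, together with 3 other members, while most other members were lower on the deposited scale. Of 57 members tested, 5 rose, 31 fell and 21 did not pass, where 72.1% of all 14801 genes tested passed, 29.6% as rises and 42.5% as falls. In 36 members all 3 Bic/4AP libraries lay below all 3 untreated ones, as in 42.7% of all genes, and in 3 members above them, as in 28.6%. The median log2 change was -0.38 over the members and -0.12 over all genes. Genes of 2 to 12 RPKM, the range that holds most members, had a median of -0.51, and 56.9% of them fell, so the members' fall is near that of other genes at their level. Genes of 20 to 50 RPKM, where Pcdha10 and Pcdhga9 lie, had a median of 0.10, and 44.8% of them rose, against 13.1% of those of 2 to 12 RPKM. The split depended on the scale: after quantile normalization 30 members rose and 7 fell, and after cyclic loess normalization, which matches libraries along the expression range, 24 rose and 14 fell. Under these scalings the median of all genes moved to 0.06 and 0.015. All 5 that rose also rose on both other scales, but only 7 of the 31 that fell did so: Pcdha7, Pcdha8, Pcdhb15, Pcdhgb2, Pcdhga5, Pcdhgb4 and Pcdhgb8.

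Pcdha10 had 54.9, 53.7 and 55.85 RPKM in the 3 Bic/4AP libraries, all above the untreated libraries. Its log2 change was 0.40 ± 0.047 (SE, n = 3 against 3, adjusted p = 1.07e-05), and on the other scales it was 0.09 and 0.14. Pcdhga9 had 32.6, 36.05 and 34.1 RPKM with Bic/4AP, also above all untreated libraries, a log2 change of 0.38 ± 0.059 (adjusted p = 9.5e-05). Its change was nearly the same on the other scales, 0.32 and 0.33. The third gene whose groups were apart was the C-type gene Pcdhgc3, known to promote dendrite branching, with 14.5, 16.1 and 13.6 RPKM in untreated neurons and 18.5, 18.1 and 18.8 with Bic/4AP (log2 change 0.31 ± 0.071, adjusted p = 0.00177).

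The beta genes Pcdhb2 and Pcdhb7 also passed, but with overlapping groups. Pcdhb2 had 3.45, 5.17 and 2.45 RPKM in untreated neurons and 5.10, 5.50 and 5.81 with Bic/4AP (log2 change 0.50 ± 0.19, adjusted p = 0.0325). Pcdhb7 had 6.73, 9.04 and 5.96 RPKM in untreated neurons and 9.64, 9.57 and 9.01 with Bic/4AP (log2 change 0.35 ± 0.13, adjusted p = 0.0312). Both log2 changes lost their call without untreated replicate 1 (adjusted p = 0.0714 and 0.088), without untreated replicate 3 (0.137 and 0.119) and without Bic/4AP replicate 2 (0.0692 and 0.0738), and limma's voom on recovered reads, an alternative added after the data were seen, gave 0.0695 and 0.0823. Pcdhb2 also did not pass when no low genes were filtered (adjusted p = 0.0514). Pcdhb2 alone also lost its call without Bic/4AP replicate 3 (0.0811), and Pcdhb7 alone without Bic/4AP replicate 1 (0.0777). The number of members that rose was 3 when untreated replicate 1, untreated replicate 3 or Bic/4AP replicate 2 was left out, and 9 when untreated replicate 2 was left out.

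The deepest falls with Bic/4AP were those of Pcdhgb8, the transcribed pseudogene of the gamma B group, and of the alpha gene Pcdha8. Their order turned with the test, since voom gave -2.41 for Pcdhgb8 and -2.47 for Pcdha8. Pcdhgb8 had 4.54, 3.67 and 4.98 RPKM in untreated neurons and 0.766, 0.991 and 0.599 with Bic/4AP, from 16, 21 and 12 reads (log2 change -1.59 ± 0.16, adjusted p = 3.15e-06). Pcdha8 had 3.418, 2.504 and 4.285 RPKM in untreated neurons and 0.590, 0.4985 and 0.571 with Bic/4AP, from 14, 12 and 13 reads (log2 change -1.48 ± 0.16, adjusted p = 5.39e-06). The groups were far apart in both genes, and both kept log2 changes of -1.01 or lower on the other scales. Pcdhb15 fell from 6.35, 6.24 and 7.60 RPKM to 2.37, 3.27 and 2.39 (log2 change -1.08 ± 0.16, adjusted p = 6.07e-05), and by 0.47 and 0.60 on the other log2 scales. All 7 gamma B genes, Pcdhgb1 to Pcdhgb8, fell on the deposited scale, with a median log2 change of -0.79, but only Pcdhgb2, Pcdhgb4 and Pcdhgb8 did so on all 3 scales. Among them Pcdhgb2 changed by -1.03 and Pcdhgb4 by -1.02, and of the gamma A genes Pcdhga5 changed by -1.24.

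By cluster, 1 alpha member rose and 10 of 14 fell, 2 beta members rose and 6 of 21 tested fell, and 2 gamma members rose and 15 of 22 fell. Median log2 changes were -0.55, -0.17 and -0.47. In the alpha cluster Pcdha7 (log2 change -0.95, adjusted p = 7.58e-05) and Pcdha11 (-0.86, adjusted p = 0.000128) followed Pcdha8, and in the beta cluster Pcdhb21 (-0.85, adjusted p = 0.000346) and Pcdhb22 (-0.61, adjusted p = 0.000876) followed Pcdhb15. Pcdha11, Pcdhb21 and Pcdhb22 did not pass after quantile normalization (adjusted p = 0.0596, 0.131 and 0.75), where Pcdhb22 turned to 0.04.

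**Figure D2:**
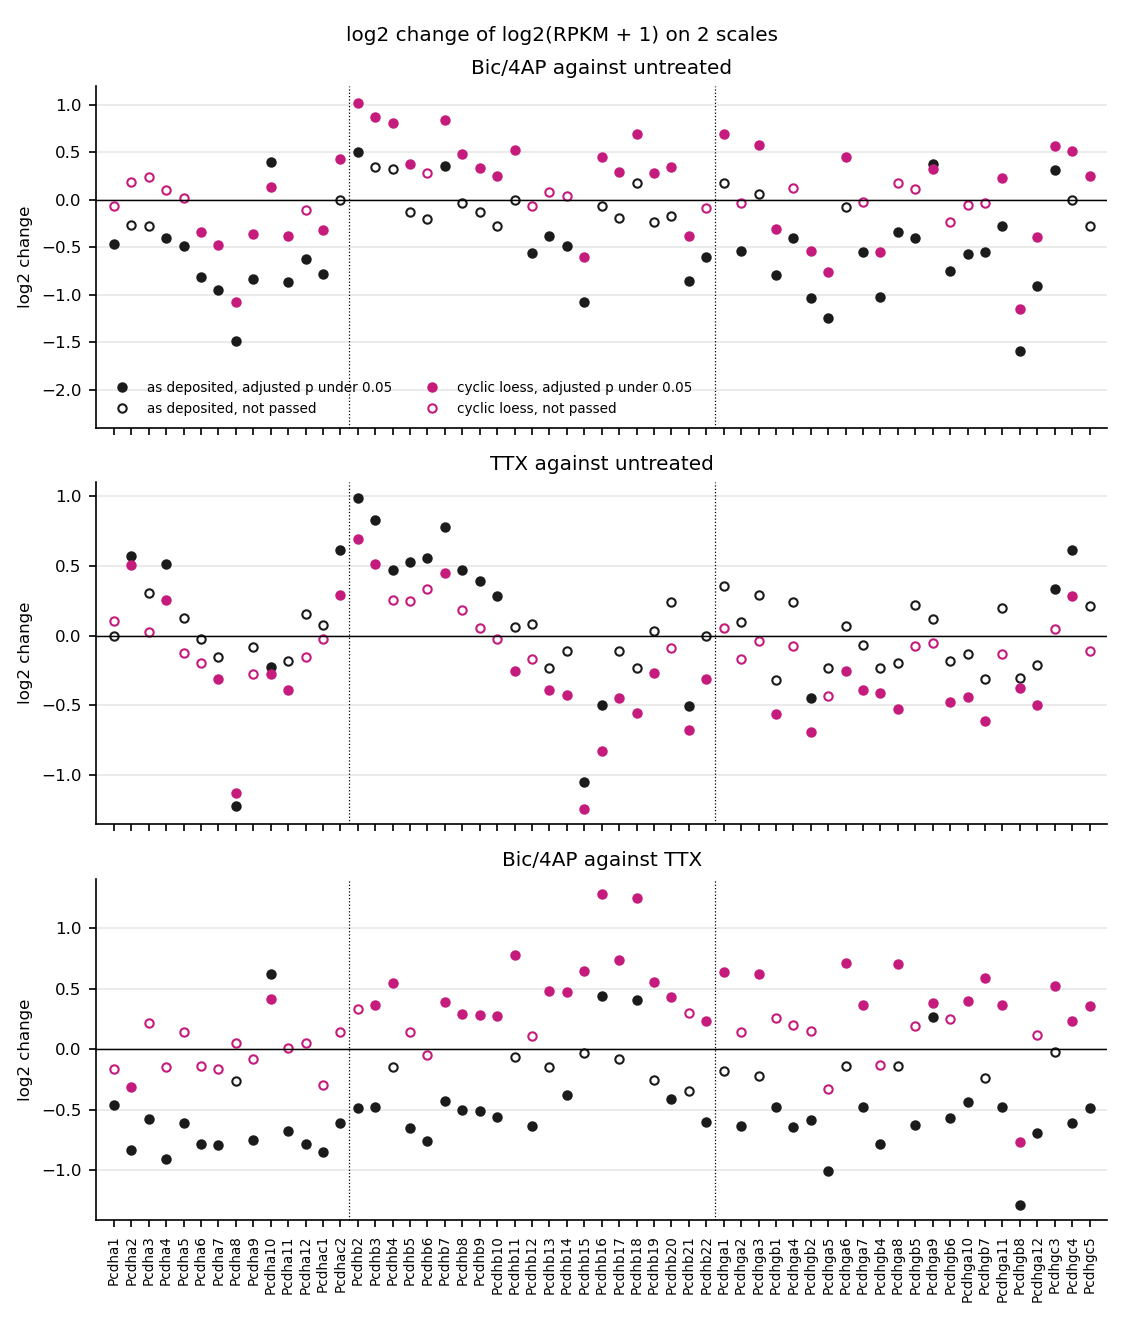
Log2 change of each of the 57 tested members in the 3 comparisons, on the deposited scale (black) and after cyclic loess normalization (magenta); filled points passed an adjusted p of 0.05 over all genes, and dotted lines part the alpha, beta and gamma clusters. With Bic/4AP against untreated, 31 members fell on the deposited scale and 14 after loess, and against TTX 39 and 2.

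Pcdha10 made up a larger part of the alpha cluster in excited neurons than in untreated or silenced ones. Of the summed alpha RPKM it held 40.4% ± 1.83 in untreated, 33.7% ± 1.91 in silenced and 59.1% ± 1.69 in excited neurons (SD, n = 3 each), with no overlap between the groups. The other 13 alpha genes together had 59.2, 64.5 and 59.2 RPKM untreated, 71.4, 72.5 and 64.7 in silenced neurons and 38.9, 39.2 and 35.7 in excited ones. This shift is on the deposited scale, on which genes of 20 to 50 RPKM and genes of 2 to 12 RPKM also parted (median log2 changes of 0.10 and -0.51). After cyclic loess Pcdha10 changed by 0.14 and other alpha genes by -1.08 at Pcdha8 to 0.43 at Pcdhac2. As deposited, the alpha cluster as a whole moved less: 102 ± 2.22 RPKM untreated, 105 ± 3.43 in silenced and 92.7 ± 1.15 in excited neurons. Pcdhga9 likewise made up 15.1% ± 1.12 of the gamma RPKM in untreated, 15.75% ± 1.498 in silenced and 24.0% ± 0.779 in excited neurons. The gamma sum was 173 ± 6.83, 180.3 ± 12.3 and 143 ± 5.11 RPKM in the same order, and the beta sum 131 ± 16.85, 149.5 ± 12.85 and 116 ± 4.10. Against untreated, the beta sums of both treatments overlapped the untreated range.

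**Figure D3:**
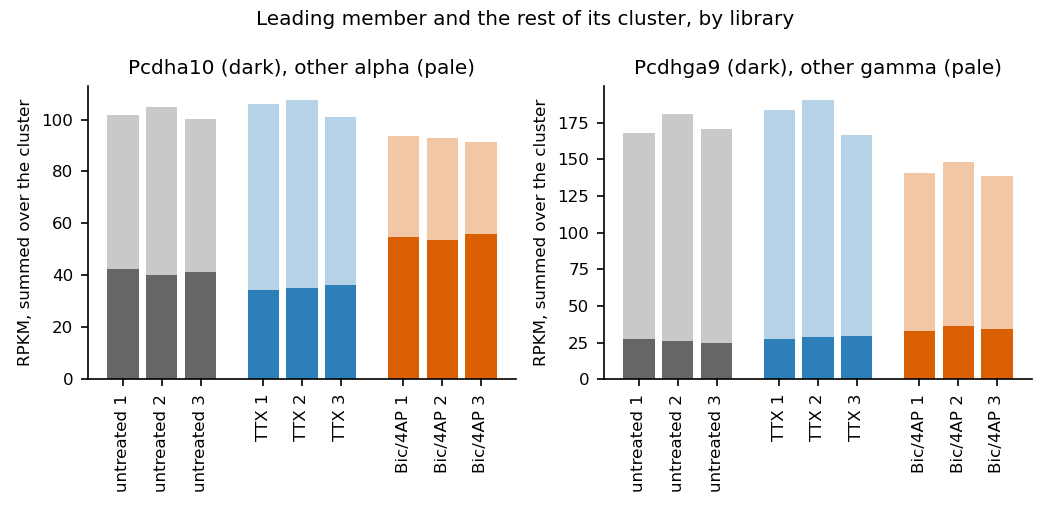
RPKM summed over the alpha cluster (left) and gamma cluster (right) in each library, with the leading member in the dark part of the bar and all other members in the pale part. The dark part of the alpha bars is 32.6% to 35.9% of the bar with TTX, 38.3% to 41.8% untreated and 57.8% to 61.0% with Bic/4AP.

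Silencing with TTX moved fewer members. Those that rose were Pcdhb2 to Pcdhb10 in the beta cluster, the C-type genes Pcdhac2, Pcdhgc3 and Pcdhgc4, and the alpha genes Pcdha2 and Pcdha4. Against untreated neurons 14 members rose, 6 fell and 37 did not pass, where 64.1% of all genes tested passed, 40.6% as rises and 23.5% as falls. The median log2 change was 0.07 over the members and 0.13 over all genes. After quantile normalization 11 rose and 14 fell, and after cyclic loess 7 rose and 25 fell, with medians over all genes of 0.05 and -0.03. On all 3 scales 7 members rose, namely Pcdha2, Pcdha4, Pcdhac2, Pcdhb2, Pcdhb3, Pcdhb7 and Pcdhgc4, and 6 fell, namely Pcdha8, Pcdha10, Pcdhb15, Pcdhb16, Pcdhb21 and Pcdhgb2. The count of rising members ranged from 8 without TTX replicate 1 to 18 without untreated replicate 2, and was 9 without untreated replicate 1. The count of falling members was 4 without untreated replicate 3 and 5 or 6 without any other library.

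Pcdha10 moved opposite to its response to Bic/4AP: its TTX libraries had 34.46, 35.01 and 36.19 RPKM, all below the untreated ones (log2 change -0.22 ± 0.047, adjusted p = 0.0015). Both comparisons share the untreated libraries. Bic/4AP against TTX, which is the difference between them, was 0.62 ± 0.047 (adjusted p = 2.34e-07). Pcdhga9 did not pass with TTX, at 27.2, 28.6 and 29.1 RPKM (log2 change 0.12, adjusted p = 0.10), and these libraries overlapped the untreated ones. Pcdha10 was thus ordered TTX, untreated, Bic/4AP without overlap, whereas for Pcdhga9 the TTX and untreated libraries overlapped and the Bic/4AP libraries lay above both. The alpha genes Pcdha2 and Pcdha4 rose with TTX: Pcdha2 from 2.18, 2.56 and 1.98 RPKM to 4.10, 3.93 and 3.43 (log2 change 0.57, adjusted p = 0.00552), and Pcdha4 from 4.20, 5.03 and 4.19 RPKM to 7.055, 6.985 and 6.365 (0.51, adjusted p = 0.0045). In both the groups were apart.

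Pcdha8, Pcdhb15, Pcdhb21 and Pcdhgb2 were lower in both treatments than in untreated neurons. Pcdha8 had 0.920, 0.820 and 0.847 RPKM with TTX (log2 change -1.22 ± 0.16, adjusted p = 5.31e-05) and Pcdhb15 had 3.14, 2.81 and 2.29 (-1.05 ± 0.16, adjusted p = 0.000128). Pcdhb21 changed by -0.50 (adjusted p = 0.0134) and Pcdhgb2 by -0.45 (adjusted p = 0.0178), but Pcdhb21 did not pass without TTX replicate 1 (0.0506), nor Pcdhgb2 without untreated replicate 3 (0.0635) or TTX replicate 3 (0.0662). Bic/4AP against TTX did not pass for Pcdha8, Pcdhb15 and Pcdhb21 (adjusted p = 0.157, 0.879 and 0.0564). The untreated libraries that are high in these genes are also those rich in choroid plexus markers, and the part of that in the 4 genes was not tested.

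Along the beta cluster the response to TTX split by position. The 9 genes from Pcdhb2 to Pcdhb10 all rose with TTX, by log2 changes of 0.29 to 0.99, whereas of the 12 genes from Pcdhb11 to Pcdhb22 none rose and 3 fell, with changes of -1.05 to 0.24. This grouping was made after the values were seen, so it is given as a description. Of all genes tested 40.6% rose and 23.5% fell with TTX. Genes of 2 to 12 RPKM had a median log2 change of 0.20, and 39.8% of them rose and 22.8% fell. Pcdhb2 rose most, to 8.18, 9.12 and 6.96 RPKM (log2 change 0.99 ± 0.19, adjusted p = 0.000796), followed by Pcdhb3 (0.83 ± 0.16, adjusted p = 0.000862) and Pcdhb7 (0.78 ± 0.13, adjusted p = 0.000319). Pcdhb16 fell from 8.15, 9.97 and 8.56 RPKM to 5.85, 6.21 and 5.86 (log2 change -0.50 ± 0.11, adjusted p = 0.00203). After cyclic loess, 3 of the 9 rose and 10 of the 12 fell, and Pcdhb10 turned to -0.03. As deposited, Pcdhb10 passed narrowly (adjusted p = 0.0491). It lost its call without TTX replicate 1, 2 or 3 (0.107, 0.182 and 0.0569) and without untreated replicate 1 or 3 (0.124 and 0.128). Pcdhb6 lost its call without TTX replicate 1 (0.0589), and Pcdhb8 passed with overlapping groups. The medians of the 2 stretches were 0.53 and -0.11 as deposited and 0.26 and -0.41 after cyclic loess. Pcdhb1, first of the beta genes and below the filter for testing, had 0.434, 0.571 and 0.284 RPKM in untreated neurons and 0.9335, 0.996 and 0.757 with TTX.

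Most members were lower in excited than in silenced neurons on the deposited scale, with Pcdha10 and Pcdhga9 again on the other side. In Bic/4AP against TTX, 4 members rose, 39 fell and 14 did not pass, where 76.8% of all genes tested passed, 23.7% as rises and 53.1% as falls. In 44 members all 3 Bic/4AP libraries lay below all 3 TTX libraries, as in 55.9% of all genes. The median log2 change was -0.49 over the members, -0.33 over all genes and -0.72 over genes of 2 to 12 RPKM, of which 65.9% fell. The split turned with the scale, to 23 rises and 1 fall after quantile normalization and 29 rises and 2 falls after cyclic loess. On all 3 scales Pcdha10, Pcdhb16, Pcdhb18 and Pcdhga9 rose and Pcdhgb8 alone fell. The median of all genes moved from -0.33 to -0.03 and -0.015 under the other scalings, so a member's fall here is relative to the deposited scale.

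Pcdhb16 and Pcdhb18, which lie on either side of Pcdhb17 in the beta cluster, were higher in all Bic/4AP libraries than in all TTX libraries. Pcdhb18 had 6.36, 6.80 and 6.25 RPKM with TTX and 9.47, 9.25 and 8.004 with Bic/4AP (log2 change 0.41 ± 0.12, adjusted p = 0.00936), and Pcdhb16 had 8.345, 9.136 and 7.872 with Bic/4AP (log2 change 0.44 ± 0.11, adjusted p = 0.00347). Pcdhb17 between them had a log2 change of -0.08 (adjusted p = 0.502), with overlapping groups. Pcdhgb8 fell from 3.70, 3.65 and 2.75 RPKM with TTX (log2 change -1.29 ± 0.16, adjusted p = 1.52e-05). The other falls named by their p-values were Pcdha4 (log2 change -0.91), Pcdha12 (-0.78), Pcdhac2 (-0.61), Pcdhb22 (-0.60), Pcdhb10 (-0.56), Pcdhb6 (-0.76), Pcdhgb4 (-0.78) and Pcdhga4 (-0.64). None of those 8 passed as a fall on either of the other scales, and after cyclic loess Pcdha12, Pcdhac2, Pcdhb22, Pcdhb10 and Pcdhga4 turned positive, with Pcdhb10 and Pcdhb22 passing as rises.

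On the deposited scale the summed C-type level was highest in silenced neurons: 57.2 ± 2.06 RPKM, against 41.8 ± 4.56 in untreated and 42.3 ± 0.419 in excited ones (SD, n = 3), and the TTX libraries lay above all others. Pcdhac2, which is needed for the spacing of serotonergic axons, had 10.2, 11.6 and 8.57 RPKM in untreated neurons and 15.7, 16.0 and 16.15 with TTX (log2 change 0.62 ± 0.10, adjusted p = 0.000246). Pcdhgc4, which is needed for the survival of neurons, had 6.08, 7.605 and 5.79 RPKM in untreated neurons and 10.5, 10.9 and 9.85 with TTX (log2 change 0.61 ± 0.13, adjusted p = 0.00123). Both also passed on the other scales, by 0.29 to 0.47. Pcdhgc3 had 18.9, 19.4 and 18.1 RPKM with TTX (log2 change 0.34 ± 0.071, adjusted p = 0.00136), a call lost on the other scales (adjusted p = 0.0602 and 0.477).

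With Bic/4AP, Pcdhac2 and Pcdhgc4 had log2 changes of 0.002 and 0.001 on the deposited scale (adjusted p = 0.99 and 0.997), but passed as rises of 0.43 to 0.62 on the other scales. Pcdhac1 fell from 3.18, 3.82 and 3.19 RPKM untreated to 2.04, 1.36 and 1.35 with Bic/4AP (log2 change -0.77, adjusted p = 0.000664) and did not pass with TTX. Its fall with Bic/4AP was lost after quantile normalization (adjusted p = 0.184). Pcdhgc5 did not pass against untreated in either treatment (adjusted p = 0.05 and 0.121), and after cyclic loess it passed as a rise with Bic/4AP (0.25). Between Bic/4AP and TTX, Pcdhac1 differed by -0.85, Pcdhgc4 by -0.61 and Pcdhgc5 by -0.49 (adjusted p = 0.000283, 0.000814 and 0.00206), and Pcdhgc3 by -0.03 (adjusted p = 0.752). After cyclic loess Pcdhgc3, Pcdhgc4 and Pcdhgc5 instead passed as rises of 0.52, 0.23 and 0.36, and Pcdhac2 turned to 0.14.

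Genes for other protocadherins and for the machinery of promoter choice were read beside the members. Of 12 tested protocadherins encoded outside the clusters, 6 rose and 4 fell with Bic/4AP, with a median log2 change of 0.13. Of all genes tested 29.6% rose and 42.5% fell. Pcdh8, an activity-regulated protocadherin that promotes removal of cadherins from synapses, rose from 24.3 ± 1.13 to 78.6 ± 1.33 RPKM (log2 change 1.65, adjusted p = 1.46e-09), and Pcdh17 and Pcdh10 rose by 0.74 and 0.91. Pcdh1, Cdhr1 and Pcdh15 fell by 0.73, 0.60 and 0.39 on the log2 scale, the last 2 not on every scale. With TTX 4 of the 12 rose and 4 fell (median -0.02), among them Pcdh8 (0.63) and Pcdh9 (-0.83), beside 40.6% and 23.5% of all genes. In Bic/4AP against TTX 8 of the 12 rose and 2 fell (median 0.50), beside 23.7% and 53.1% of all genes.

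Of 23 tested genes for promoter choice and silencing, 5 rose and 14 fell with Bic/4AP, and 12 of the 14 fell on all 3 scales, beside the 29.6% and 42.5% of all genes. Setdb1, which methylates lysine 9 of histone H3 and shields the protocadherin locus, fell from 22.7 ± 1.48 to 8.38 ± 0.686 RPKM (log2 change -1.34, adjusted p = 2.9e-08). The histone methyltransferase gene Ehmt2 (-1.26), the cohesin genes Stag1 (-0.75) and Smc3 (-0.91), Smchd1 (-0.67), which silences the clusters, and Ctcf (-0.29) also fell, whereas the cohesin genes Rad21 (0.22) and Stag2 (0.13) rose on the deposited scale. Tet3 and Tet2, which oxidise methylated cytosine, rose by 0.78 and 0.45. The median of the list was -0.29, against -0.12 over all genes. With TTX 5 rose and 6 fell (median -0.03), beside 40.6% and 23.5% of all genes. In Bic/4AP against TTX 6 rose and 14 fell (median -0.30), beside 23.7% and 53.1%. Dnmt3b, which methylates these promoters in the embryo, was not tested, at 0.562 ± 0.110 RPKM untreated.

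Among 25 tested genes that carry or cut the protocadherin signal, 11 rose and 7 fell with Bic/4AP (median 0.10), 8 rose and 8 fell with TTX (median 0.02), and 11 rose and 9 fell between Bic/4AP and TTX (median -0.02). For this list and the next, the shares of all genes were 29.6% and 42.5% with Bic/4AP. They were 40.6% and 23.5% with TTX, and 23.7% and 53.1% between the treatments. The gamma-secretase gene Psenen rose from 27.45 ± 2.27 to 53.8 ± 3.53 RPKM with Bic/4AP (log2 change 0.95), whereas Axin1, a partner of Pcdhgc3, fell by 1.57 and the WAVE complex gene Cyfip1 by 1.16 on the log2 scale. Of 23 genes for other adhesion proteins, 7 rose and 10 fell with Bic/4AP (median -0.06), 10 rose and 7 fell with TTX (median 0.01), and 5 rose and 16 fell between them (median -0.27). Of 20 tested genes that flank the clusters, 7 rose and 7 fell with Bic/4AP (median 0.07), where 29.6% and 42.5% of all genes did. With TTX 13 rose and 4 fell (median 0.28), where 40.6% and 23.5% did. Between Bic/4AP and TTX 4 rose and 13 fell (median -0.41), where 23.7% and 53.1% did. Taf7, a transcription factor subunit encoded between the beta and gamma clusters, rose from 9.47 ± 1.11 RPKM to 14.6 ± 0.233 in silenced and 17.9 ± 2.05 in excited neurons, and passed in all 3 comparisons on all 3 scales.

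The protocadherin locus was less methylated than the rest of its chromosome, and the starts of its genes were mostly at intermediate levels, unlike most gene starts. In untreated neurons mean CpG methylation was 0.624 across the alpha cluster (2188 CpGs), 0.672 across the beta cluster (2072) and 0.460 across the gamma cluster (2887), against 0.753 over chromosome 18. Within 500 bases of the RefSeq start, 47 of the 58 members had a mean between 0.2 and 0.8, where 13.6% of 14716 protein-coding starts did. The median over those protein-coding starts was 0.026, and 66.7% were below 0.1. They held a median of 47 CpGs each, against 22 for the members, and the part of CpG number in the difference was not tested. Intermediate levels were found at single CpGs as well: of CpGs within 500 bases of the 53 starts that are not C-type, 56.0% lay between 0.2 and 0.8. Around the protein-coding starts 5.4% of CpGs did. The files give no coverage, so the depth behind each fraction is unknown.

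The clusters and the C-type genes differed in level. The median over starts was 0.455 for the 12 alpha genes that are not C-type, with a range of 0.278 at Pcdha12 to 0.630 at Pcdha8. It was 0.465 for the 22 beta genes, from 0.321 at Pcdhb3 to 0.689 at Pcdhb13, and 0.229 for the 19 gamma genes that are not C-type, from 0.093 at Pcdhgb6 to 0.393 at Pcdhgb1. The C-type starts were low, with 0.004 at Pcdhgc3, 0.010 at Pcdhgc4, 0.013 at Pcdhac2, 0.071 at Pcdhgc5 and 0.147 at Pcdhac1. Pcdhac1 and Pcdhac2 thus part from the 12 alpha genes before them, and the 3 gamma C-type genes from the 19 before them, without overlap in either cluster. Pcdhgb6 was nearest to the C-type genes of its cluster. Within 1000 bases the gamma groups overlapped, since Pcdhgc5 had 0.387 there, above the median of 0.356 for the gamma genes that are not C-type.

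**Figure D4:**
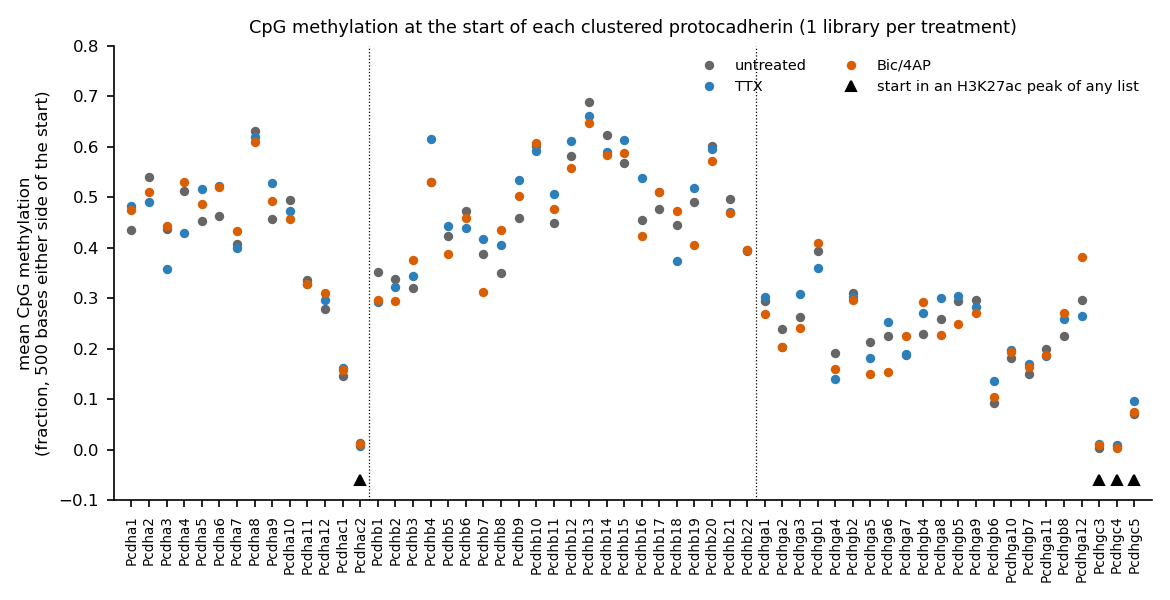
Mean CpG methylation within 500 bases either side of the start of each member, in chromosome order, in the untreated, TTX and Bic/4AP bisulfite libraries (1 each); triangles mark starts that lie in an H3K27ac peak of any list, and dotted lines part the clusters. The C-type starts are lowest, at 0.004 to 0.147 untreated, and the 4 with a triangle are all C-type.

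The dip around the starts had a different shape in each group. In beta genes it was narrow and lay upstream, with 0.288 in the 250 bases before the start, 0.497 in the 250 bases after it and 0.713 by 500 to 750 bases. In gamma genes that are not C-type it was deeper, with 0.142 before the start and 0.193 after it, rising to 0.578 by 750 to 1000 bases. In alpha genes it was shallow and lay downstream, lowest at 0.398 between 250 and 500 bases. C-type genes were lowest, at 0.024 before the start, and stayed at 0.161 by 750 to 1000 bases downstream. Wider windows of 1000 bases gave medians of 0.511 for alpha, 0.604 for beta and 0.356 for gamma genes that are not C-type.

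**Figure D5:**
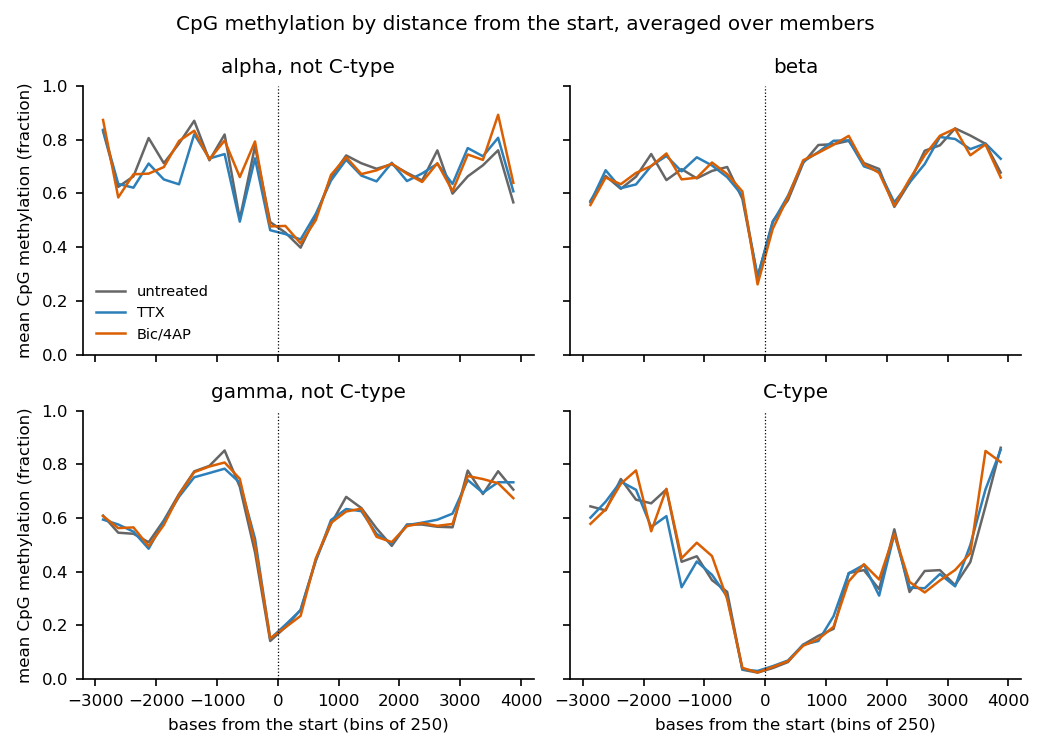
Mean CpG methylation in bins of 250 bases by distance from the start, over the CpGs of all members of a group, for alpha and gamma genes that are not C-type, beta genes and C-type genes, with 1 line for each treatment. The lines part in some bins of few CpGs, such as 500 to 750 bases before alpha starts (3 CpGs; 0.505 untreated, 0.495 with TTX and 0.661 with Bic/4AP), and the lowest bin in untreated neurons is 0.398 for alpha, 0.288 for beta, 0.142 for gamma and 0.024 for C-type genes.

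Neither treatment moved methylation of the locus as a whole by more than a small amount. The whole locus had 0.585 untreated, 0.583 with TTX and 0.581 with Bic/4AP over 8111 CpGs. At the 53 starts that are not C-type, Bic/4AP minus untreated had a median of -0.008, with 26 starts higher and 27 lower, and TTX minus untreated a median of 0.008, with 29 higher and 24 lower. The largest differences between Bic/4AP and untreated were -0.084 at Pcdhb19 and 0.085 at Pcdhga12. Protein-coding starts of intermediate level, from which the members were not removed, differed by -0.085 to 0.091 between their 5th and 95th percentiles. The members' largest differences lie within or at the edge of that range. Bic/4AP minus TTX had a median of -0.006, with 20 starts higher and 33 lower. It ran from -0.115 at Pcdhb16 to 0.116 at Pcdhga12 (10 CpGs each). Both lie beyond -0.085 to 0.082, the 5th and 95th percentiles of the same intermediate starts, outside which 10% of those starts lie by definition. Pcdhb19, Pcdhga6, Pcdha4, and Pcdhb7 and Pcdhb18 with 9 CpGs each, were also outside these percentiles, and Pcdhb4 and Pcdha3 were just past them. Pcdha10 had 0.494 untreated, 0.473 when silenced and 0.456 when excited, and Pcdhga9 had 0.297, 0.283 and 0.271. With 1 library for each treatment there is no replicate check on any of these differences.

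Methylation at the start did not follow the order of expression in any simple way. Pcdha10, the most expressed member, at 0.494, lay above the median of the alpha genes, and Pcdhga9, at 0.297, above that of the gamma genes. The next, Pcdhgc3, had the least methylated start of all 58 members. Pcdha8, the alpha start with the highest methylation, had the lowest alpha level in both treated groups. Across members the rank correlation (Spearman) of methylation at the start with untreated RPKM was -0.27 over all 58, -0.44 over the 12 alpha genes, 0.21 over the 22 beta genes and -0.11 over the 19 gamma genes. Points share a library and differ in CpG number, which itself had a rank correlation of -0.63 with methylation over 53 starts, so these are descriptions only.

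H3K27ac peaks in the locus lay mostly at or downstream of the C-type genes, and none at the start of another member. The lists differed greatly in size: the first pair held 4846 peaks untreated and 7721 with Bic/4AP, and the second pair 49701 and 55035. In the locus they held 2, 5, 17 and 18 peaks. None of the 4 lists held a peak in the beta cluster. No start of the 53 members that are not C-type lay in a peak or within 1000 bases of one in any list. Of 14716 protein-coding starts, 22.1% and 32.2% lay in a peak of the second untreated and second Bic/4AP list. In the first pair 2.38% and 13.1% did so. Within 1000 bases of a peak lay 32.3% and 42.1% in the second pair and 10.6% and 23.7% in the first.

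The start of Pcdhac2 lay in a peak of 3 lists, with the authors' score of 106 and 2265 in the Bic/4AP lists and 701 in the second untreated list. The start of Pcdhgc4 lay in a peak of both untreated lists, with scores of 50.1 and 682, and of the second Bic/4AP list, with 364. Pcdhgc5 had scores of 262 and 572 in the second untreated and Bic/4AP lists. Pcdhgc3 was in a peak of the second Bic/4AP list only, with 729, and in the second untreated list a peak of score 59.2 ended within 1000 bases of its start. Pcdhac1, whose start was the most methylated of the C-type genes, had no peak at its start in any list. Scores come from separate lists and depend on depth, so they show no change between treatments.

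Other peaks lay away from the members' starts. All 4 lists held a peak 27.5 to 28.6 kb past the end of the alpha cluster, at chr18:37216568-37218503 in the second Bic/4AP list, with scores of 365 and 1897 untreated and 274 and 1927 with Bic/4AP. The highest score in the locus, 3100, was that of chr18:37839080-37845134 in the second untreated list, a peak that spans the gamma end. The second Bic/4AP list held chr18:37839056-37841593 (score 2075) and chr18:37841594-37845887 (score 2336) there. In the second pair, large peaks also covered chr18:37175624-37179535 before the alpha end (score 1096 untreated) and chr18:37823927-37828333 after Pcdhgc5 (score 1661 untreated). Each Bic/4AP list held a peak at or within 1000 bases of the end of Taf7 that faces the gamma cluster, and neither untreated list did. These peaks lay at chr18:37644350-37644660 (score 51.4) and chr18:37643592-37644339 (score 156) and did not overlap each other. In each pair the Bic/4AP list was also the larger, so their presence shows no change between treatments. The H3K4me1 lists of untreated neurons held 11 and 10 peaks in the locus, 5 in the alpha cluster of each and 6 and 5 in the gamma cluster, none in the beta cluster and none at a member's start.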

How the data were processed

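RNA-seq libraries of 3 treatments (3 each), 3 bisulfite libraries and 6 ChIP-seq peak lists were used; the input sample was not analysed here. Expression values were deposited as RPKM by the authors, per poly(A) RNA library made with a directional kit per the labels. The mm10 build, MACS 1.4.1, TopHat, SAMtools 0.1.19 and Bowtie2 2.2.4 are named per the submitters' processing notes, with no order; the sources used here do not give whether counting used strand or removed duplicates. Methylation was deposited by the authors as a fraction for each CpG, without coverage, and peaks with a score per peak, called per sample.

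RPKM values of 19564 of 19588 genes (99.877%) were whole multiples of 1 read within 0.15, which gave library sizes and reads per gene. The files hold 24062 lines, of which 4 with a repeated name were left out. Genes at 1 RPKM or more in 3 libraries were tested with limma 3.58.1 in R 4.3.3 on log2(RPKM + 1) with an intensity trend, all 9 libraries in 1 fit, at a Benjamini-Hochberg adjusted p of 0.05 over 14801 genes; this scale understates changes of low genes. Of the 58 members 57 were tested, and 4 of these were under 1 RPKM in some library. On simulated data the fit recovered 84% to 87% of 2-fold and 35% to 42% of 1.5-fold changes. Of its calls 4.51% to 15.0% were false, the highest share in Bic/4AP against untreated. The simulation changed only a small part of the genes, at a fixed spread and with no shift by expression level. In the real data 64.1% to 76.8% of genes passed, so these rates may not hold for the calls here. Methylation was averaged over CpGs listed in all 3 libraries within 500 bases of RefSeq (GRCm38) starts, and peak coordinates are printed as listed. Members, gene lists, alternatives and tests were chosen with earlier results of these data known. Named members are the 3 with the smallest adjusted p for each comparison, cluster and direction, the C-type genes, and members named after their values were seen; other lists give up to 3 genes for each direction by the same p, and further examples chosen after their values were seen. Alternatives were another pseudocount, no filter, quantile and cyclic loess normalization, a replicate block, each library left out, wider windows, each library's own CpGs, stricter peak scores and overlaps, and, added after the data were seen, voom on the recovered reads. Replicate numbers are not said to mark a shared culture, so the main fit did not pair libraries by them.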

Additional observations from a re-analysis of the deposited data

How the results depend on the processing

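Counts of rising and falling members in each comparison stayed within 1.5 times with another pseudocount, without a filter on low values and with a replicate block, which gave 6 rises and 30 falls with Bic/4AP against untreated, 13 and 6 with TTX and 4 and 39 between them and changed 2 calls of named members, Pcdhb3 with Bic/4AP (0.35, now passing) and Pcdhb10 with TTX (0.29, now not passing). Libraries of the same number correlated at -0.17 to 0.04 in their deviations, and libraries of different numbers at -0.13 to 0.21. With 3 libraries of each treatment this cannot show whether a number marks a shared culture. Scaling decided most of the counts: with Bic/4AP against untreated 30 rose and 7 fell after quantile and 24 and 14 after cyclic loess normalization, with TTX quantile normalization gave 14 falls and loess 7 rises and 25 falls, and in Bic/4AP against TTX 23 rose and 1 fell and 29 rose and 2 fell. The voom test on reads gave 3 rises with Bic/4AP against untreated. Leaving out 1 library gave 3 to 9 rises and 25 to 30 falls with Bic/4AP against untreated, 8 to 18 and 4 to 6 with TTX, and 4 and 32 to 39 in Bic/4AP against TTX.

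Among named members past the threshold on the deposited or the other scale, these turned sign after quantile normalization: in Bic/4AP against untreated, Pcdha12 (0.015), Pcdha4 (0.27), Pcdhb10 (0.37), Pcdhb16 (0.47), Pcdhb22 (0.035), Pcdhb6 (0.48), Pcdhga4 (0.24) and Pcdhgc5 (0.35), and in Bic/4AP against TTX, Pcdhac2 (0.038), Pcdhb10 (0.21), Pcdhb15 (0.53), Pcdhb2 (0.28), Pcdhb22 (0.17), Pcdhb3 (0.28), Pcdhb7 (0.26), Pcdhga4 (0.14), Pcdhgb2 (0.066), Pcdhgc3 (0.41), Pcdhgc4 (0.15) and Pcdhgc5 (0.28). After cyclic loess they did so in Bic/4AP against untreated, Pcdha4 (0.10), Pcdhb10 (0.25), Pcdhb16 (0.45), Pcdhga4 (0.12) and Pcdhgc5 (0.25), in TTX against untreated, Pcdhb10 (-0.026), and in Bic/4AP against TTX, Pcdha11 (0.012), Pcdha12 (0.051), Pcdhac2 (0.14), Pcdhb10 (0.28), Pcdhb15 (0.64), Pcdhb2 (0.33), Pcdhb22 (0.23), Pcdhb3 (0.36), Pcdhb7 (0.39), Pcdhga4 (0.20), Pcdhgb2 (0.15), Pcdhgc3 (0.52), Pcdhgc4 (0.23) and Pcdhgc5 (0.36). The cause was not tested.

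The mean of log2(RPKM + 1) over members in place of the log2 ratio of summed RPKM moved alpha from -0.14 to -0.56 and from -0.18 to -0.59, and gamma from -0.28 to -0.47 and from -0.34 to -0.48, for Bic/4AP against untreated neurons and against silenced ones, where 1 abundant gene weighs less; the other cluster sums moved by less than the spread between libraries. With all CpGs a library lists, methylation was 0.630 across alpha, 0.469 across gamma and 0.258 at gamma starts that are not C-type. Windows of 1000 bases gave 0.511 for alpha, 0.604 for beta, 0.356 for gamma and 0.0196 for C-type starts. At a peak score of 100 or more the first untreated H3K27ac list kept 1 peak and 0 member starts, the first Bic/4AP list 2 peaks and the H3K4me1 lists 2 and 4 peaks.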

Other observations

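A further row of the expression files, named Pcdha4-g, lies outside the naming rule of the members. It had 2.60, 2.76 and 2.21 RPKM untreated, 4.89, 5.03 and 5.03 with TTX and 2.36, 2.85 and 1.66 with Bic/4AP. On the deposited scale it rose with TTX (log2 change 0.77, adjusted p = 0.00129 by limma). It was lower with Bic/4AP than with TTX on that scale (log2 change -0.88, adjusted p = 0.00031). The gene length behind its RPKM was 4580 bases, within the lengths of gamma genes (4482 to 5079) and below those of alpha genes (5209 to 5425). Its reads may overlap those of the alpha or gamma genes, so its values and theirs may not be independent.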
